A study of Mus musculus with 12 samples.

Results

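The nerve bridge and the distal stump of injured sciatic nerves were compared in mice whose myelinating Schwann cells had lost Nf1. All genes of the 6 Nf1 KO libraries enter the comparison, 3 of the bridge and 3 of the distal stump, out of 12 libraries in the study. Tissue was taken 14 days after injury. The Nf1 KO genotype is P0-CreERT2:YFPfl/fl:Nf1fl/fl and the control genotype (CTL) is P0-CreERT2:YFPfl/fl:Nf1+/+. Both genotypes thus carry the tamoxifen-inducible Cre recombinase, driven by the P0 promoter, and the YFP reporter. Recombination is aimed at myelinating Schwann cells, so the other cells of the nerve keep Nf1. RNA of each library came from 6 fragments, each 0.5 mm in size, combined across mice, so the p-values describe the spread between pools and no single mouse can be followed. Of 30452 genes listed, 19189 had enough counts to be tested.

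After a nerve is cut, axons beyond the injury degenerate and the Schwann cells of the distal stump turn into repair cells, which break down myelin, secrete trophic factors and form tracks for regrowing axons. Macrophages in the stump take up myelin debris, which is rich in cholesterol. The bridge is new tissue between the cut ends, built from matrix-producing fibroblasts, new vessels, macrophages and Schwann cells that migrate in along the vessels. In bulk RNA, fewer cells of a type and less RNA per cell cannot be told apart, and this holds for every result below.

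Library totals were 26124609, 33887873 and 32612435 in the bridge and 38981819, 36027933 and 29597833 in the distal stump. Levels are CPM, counts relative to 1000000 library counts, with library sizes scaled by edgeR's TMM factors, and the values of a region are given in the order of its libraries 1, 2 and 3. Nf1, which encodes the RAS-inactivating protein neurofibromin, stood at 42.4, 54.7 and 46.4 CPM in the bridge and 42.5, 43.1 and 42.3 CPM in the distal stump. The Nf1 KO libraries together spanned 42.3 to 54.7 CPM and the CTL libraries 57.0 to 69.7 CPM, without overlap. Between the Nf1 KO regions Nf1 did not pass the test (log2 fold change 0.17 ± 0.10, where ± gives the SE of a log2 fold change here and throughout, edgeR adjusted p = 0.301, and exact permutation p = 0.3, where 0.1 is the smallest p that 3 against 3 libraries allow).

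Libraries with the number 1 stood apart in Nf1 KO. The library names in the labels give the number 1 library of each of the 4 groups another first index than numbers 2 and 3. Gm15662, a non-coding gene, held 24.5% of all counts of Nf1 KO distal 1, against 3.13 to 3.28% in the bridge libraries and 1.66% and 6.57% in the other distal libraries. The 15 skeletal muscle genes measured summed to 1872, 575 and 1186 CPM in the bridge and 3232, 30.4 and 123 CPM in the distal stump. The neutrophil list of 12 genes summed to 1300.0, 99.3 and 125 CPM in the bridge and 606, 262 and 249 CPM in the distal stump. Muscle genes thus were high in all bridge libraries and in distal 1, and neutrophil genes were high in bridge 1 and distal 1. Y-linked genes were lowest in bridge 2 and distal 2 of the Nf1 KO libraries. Ddx3y measured 40.6, 8.81 and 36.3 CPM in the bridge and 29.0, 10.1 and 18.4 CPM in the distal stump. In CTL it measured 66.4, 28.4 and 61.8 CPM in the bridge and 60.0, 33.8 and 35.6 CPM in the distal stump. Kdm5d, Eif2s3y and Uty had the same low Nf1 KO libraries. None of these genes passed between the Nf1 KO regions (edgeR adjusted p from 0.496 to 0.554). The mix of sexes in the pools was not tested. On 139 genes at least 2-fold higher in the bridge of CTL nerves, scaled so that the CTL distal mean is 0 and the CTL bridge mean is 1, the Nf1 KO bridge libraries lay at 0.862, 0.684 and 0.759 and the distal libraries at 0.539, -0.00855 and 0.0507. On the 107 genes at least 2-fold lower in the CTL bridge, the Nf1 KO bridge lay at 1.16, 1.15 and 1.14 and the distal stump at 0.289, 0.204 and 0.230. Nf1 KO distal 1 therefore stood nearer to the bridge than the other distal libraries on the genes that are higher there, and close to the other distal libraries on the genes that are lower. Members of the short muscle, neutrophil, fat and blood lists were left out of both sets, while further genes of those cells may remain. Their part in the regional calls was not tested, and the named genes whose call changes without distal 1 are given with the counts over all genes.

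**Figure D1:**
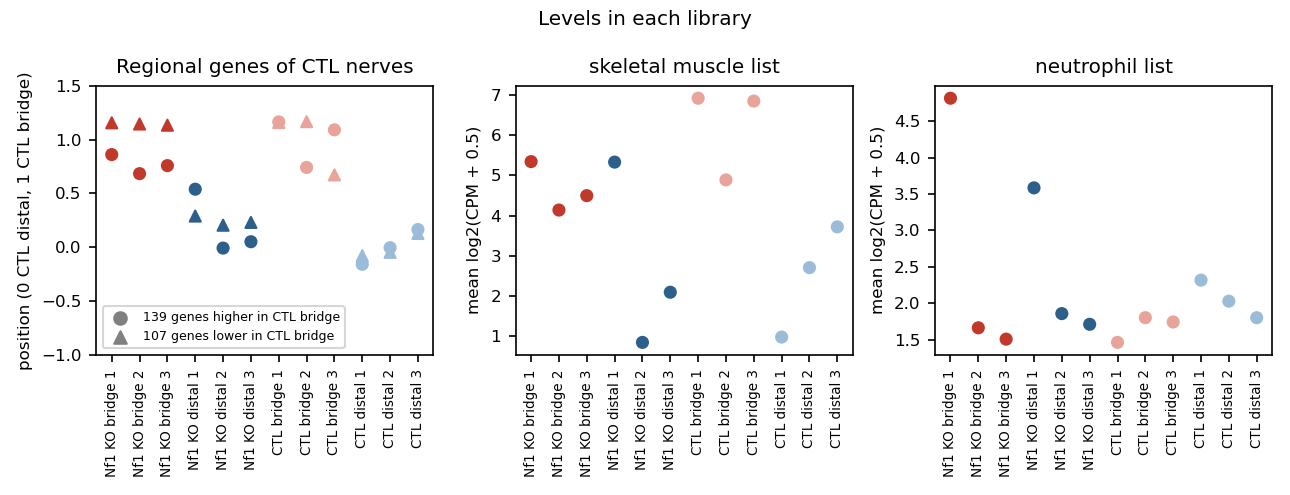
Position of each library between the CTL distal mean (0) and the CTL bridge mean (1) on genes called in CTL nerves (left), and mean log2(CPM + 0.5) of the skeletal muscle (middle) and neutrophil (right) lists. Points are single libraries coloured by group. Nf1 KO distal 1 lies at 0.539 on the genes higher in the CTL bridge and is high in muscle and neutrophil genes, and Nf1 KO bridge 1 has the highest neutrophil level.

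Between bridge and distal stump of Nf1 KO nerves, 2914 genes passed an adjusted p of 0.05, which is 15.2% of those tested. Of these, 1492 (7.78%) were higher in the bridge and 1422 (7.41%) were higher in the distal stump. Changes of at least 2-fold were found in 514 genes (2.68%), 272 (1.42%) higher in the bridge and 242 (1.26%) higher in the distal stump. The 3 libraries of the bridge and the 3 of the distal stump did not overlap in 34.0% of the tested genes, with the bridge above in 17.2% and below in 16.8%. The median log2 fold change over all genes was 0.0042. These shares are the background for the counts of list members below. Without Nf1 KO distal 1, 2892 genes were called, of which 2319 were also called with it, all in the same direction. Leaving out another library lowered the number further, to 1594 without distal 3, 1814 without bridge 1, 1868 without distal 2, 1935 without bridge 2 and 1947 without bridge 3. Without both number 1 libraries, 1862 were called and 1631 of them were shared. With a block for the replicate number in the 6 Nf1 KO libraries, 1360 were called and 1249 of them were shared. Of the 157 called genes named in the text, 8 lost their call without distal 1, with adjusted p = 0.109 for Ank3, 0.0653 for Col11a1, 0.0582 for Etv5, 0.0576 for Fosl1, 0.0731 for Myh7, 0.108 for Ntrk3, 0.0846 for Slco1a4 and 0.0602 for Timp2, and Vegfa gained one at 0.0448. Leaving out any other library cost more of these calls, 29 without distal 3, 25 without distal 2, 22 without bridge 2, 20 without bridge 3 and 19 without bridge 1. Without both number 1 libraries 28 were lost, and with the replicate block in the 6 Nf1 KO libraries 34.

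**Figure D2:**
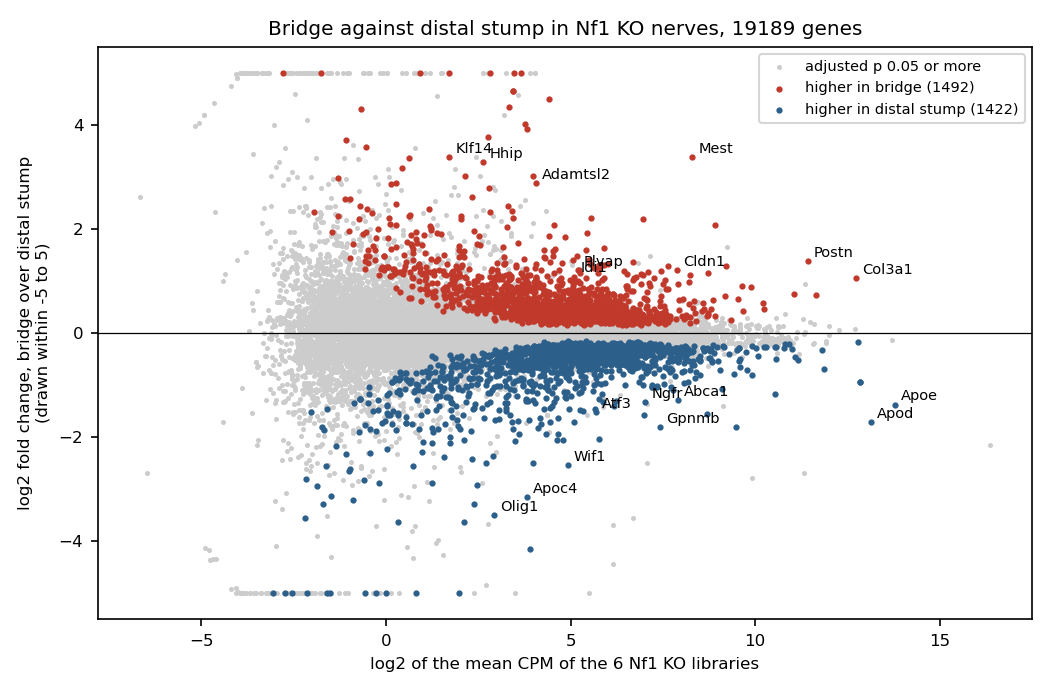
Log2 fold change of bridge over distal stump in Nf1 KO nerves against the log2 of the mean CPM of the 6 libraries, 1 point per gene for 19189 genes, with values beyond 5 in either direction drawn at the edge. Red points (1492) were higher and blue points (1422) lower in the bridge at an adjusted p under 0.05, and named genes include Mest and Hhip at the top, Olig1 and Apoc4 at the bottom, and Apoe and Col3a1 among the most abundant.

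Genes of the repair Schwann cell were lower in the bridge. Of 24 members tested, 16 were lower and 1 (Cdh2, which encodes N-cadherin) was higher, and the median log2 fold change was -0.87. Olig1, a basic helix-loop-helix factor of glial cells (chromosome 16, 91269772 to 91271933, plus strand), measured 1.28, 1.09 and 1.31 CPM in the bridge and 12.1, 13.7 and 15.7 CPM in the distal stump. All bridge values lay far below all distal values (log2 fold change -3.49 ± 0.47, adjusted p = 0.00132). Atf3, an injury-induced transcription factor, measured 23.6, 32.3 and 24.0 CPM in the bridge and 78.5, 80.2 and 70.9 CPM in the distal stump (log2 fold change -1.52 ± 0.23, adjusted p = 0.00204). Ngfr, the low-affinity neurotrophin receptor p75, measured 73.0, 77.9 and 69.7 CPM in the bridge and 153, 192 and 209 CPM in the distal stump (log2 fold change -1.33 ± 0.19, adjusted p = 0.00155). The distal values of Ngfr varied more than those of the bridge, and the groups did not overlap. Gap43, a growth-associated membrane protein, was at 31.9, 34.7 and 28.8 CPM in the bridge and 83.3, 76.1 and 69.6 CPM in the distal stump (log2 fold change -1.26 ± 0.17, adjusted p = 0.00127). Sox2, a factor of immature Schwann cells, was at 22.5, 27.9 and 22.4 CPM in the bridge and 42.0, 59.8 and 57.7 CPM in the distal stump (log2 fold change -1.13 ± 0.16, adjusted p = 0.00173).

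Secreted factors of the same list followed this order. The log2 fold changes were -1.94 ± 0.32 for the peptide hormone gene Ucn2, -1.67 ± 0.25 for the growth factor Fgf5 and -1.20 ± 0.22 for the EGF receptor ligand betacellulin (Btc). Artn, Gdnf, Lif and Shh, which encode the GDNF-family ligand artemin, GDNF itself, leukaemia inhibitory factor and Sonic hedgehog, were lower in the bridge by 1.03, 0.84, 0.91 and 0.90 on the log2 scale. Gdnf (adjusted p = 0.0277) and Shh (0.0224) lost their calls without bridge 1, bridge 2, distal 2, distal 3 or both number 1 libraries. Gdnf also lost its call without bridge 3, and Lif (0.0150) without bridge 2 or distal 3. Artn is a low gene, at 2.56, 1.62 and 1.31 CPM in the bridge and 2.79, 3.54 and 4.86 CPM in the distal stump. Its call was near the threshold (adjusted p = 0.0485) and was lost without bridge 2, bridge 3, distal 2 or distal 3. It was also lost with upper-quartile factors, no filter, the 6 Nf1 KO libraries alone or a replicate block. Jun, the factor that drives the repair programme, did not pass the test, at 92.4, 109.9 and 83.8 CPM in the bridge and 95.9, 112 and 105 CPM in the distal stump (log2 fold change -0.13 ± 0.12, adjusted p = 0.539). With libraries left out, the count of 16 lower repair genes became 10 without bridge 2 or distal 3.

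The wider Schwann lineage list had 9 of 15 members lower and 2 higher in the bridge. Sox10, the lineage factor and a defining marker of Schwann cells, was at 69.7, 78.7 and 62.3 CPM in the bridge and 95.9, 104 and 107 CPM in the distal stump (log2 fold change -0.54 ± 0.10, adjusted p = 0.00704). Erbb3, the neuregulin receptor of Schwann cells, was at 107, 113 and 98.2 CPM in the bridge and 147, 182 and 162 CPM in the distal stump (log2 fold change -0.63 ± 0.09, adjusted p = 0.00179). Cdh19, a Schwann precursor cadherin, had a log2 fold change of -0.65 ± 0.08 and Foxd3, a neural crest factor, one of -0.70 ± 0.16. Opposite to these, the sodium channel gene Scn7a measured 123, 127 and 143 CPM in the bridge and 73.0, 75.4 and 75.9 CPM in the distal stump, with no overlap (log2 fold change 0.81 ± 0.09, adjusted p = 0.000703). Gfra3, the receptor of artemin, measured 5.86, 7.41 and 6.36 CPM in the bridge and 2.09, 2.39 and 2.09 CPM in the distal stump (log2 fold change 1.58 ± 0.20, adjusted p = 0.000926). The receptor was higher in the bridge, while the lower call of the ligand gene Artn was lost without bridge 2, bridge 3, distal 2 or distal 3.

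Most myelin genes did not pass the test. Of 20 tested, none was higher and 1 was lower in the bridge. The median of the list was 0.19. Among genes of the node and of axon contact, 3 of 11 were lower, Nrcam and Ank3 at the node and Cadm4 along the internode, a count that became 1 without bridge 1, distal 2 or distal 3. Tubb3 and Uchl1, abundant in axons, were the 2 of 10 neuronal genes called, and both were lower in the bridge. Tubb3 was at 26.5, 35.6 and 38.7 CPM in the bridge and 60.6, 82.8 and 109 CPM in the distal stump (log2 fold change -1.32 ± 0.28, adjusted p = 0.0107).

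**Figure D3:**
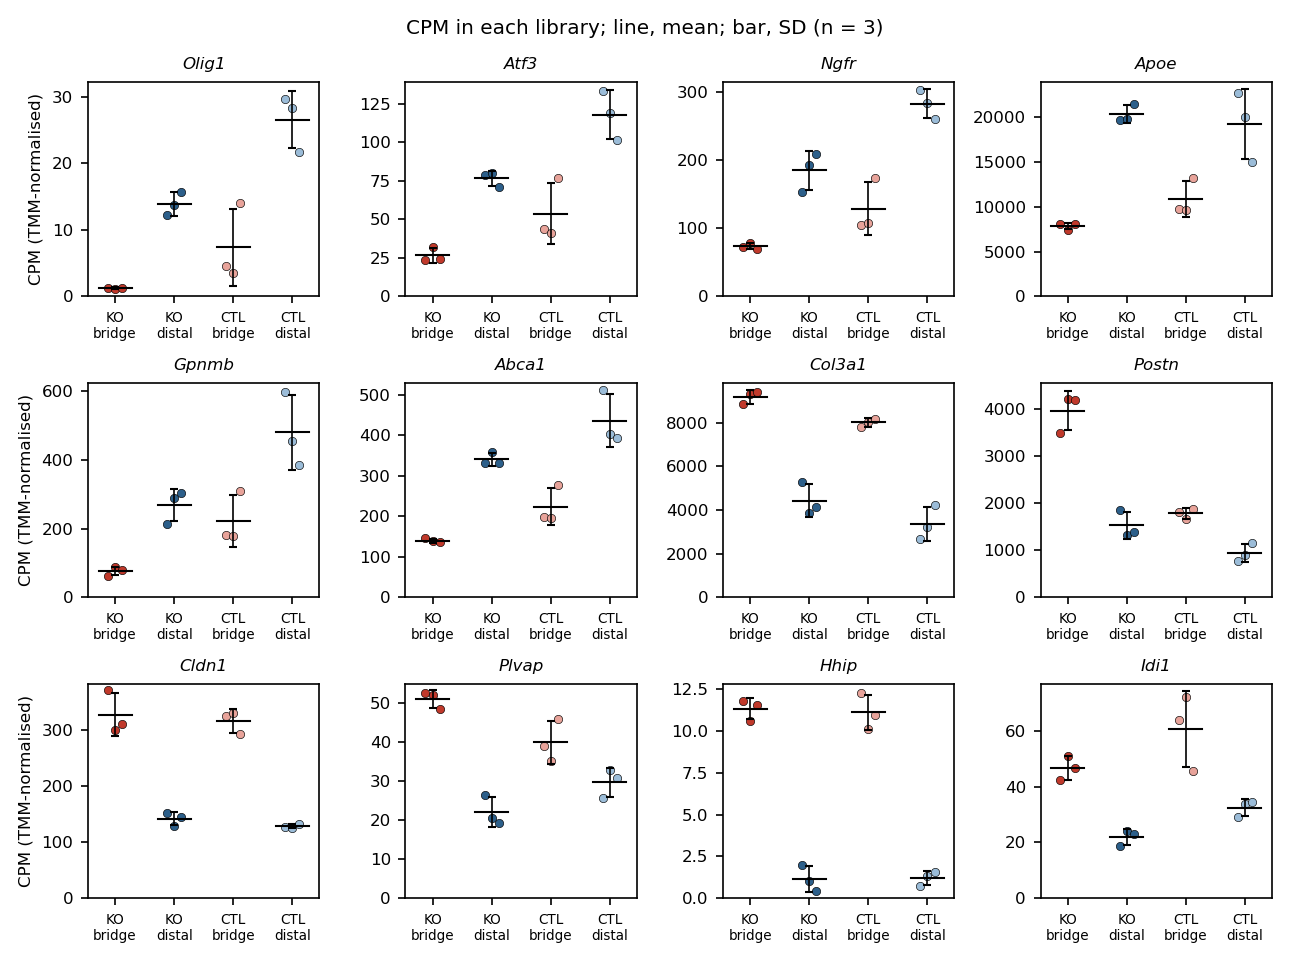
CPM of 12 genes in each of the 12 libraries, by genotype and region, with the mean (line) and SD (bar, n = 3). Olig1, Atf3, Ngfr, Apoe, Gpnmb and Abca1 are lower in the Nf1 KO bridge than in the Nf1 KO distal stump, and Col3a1, Postn, Cldn1, Plvap, Hhip and Idi1 are higher, with no overlap between the 2 regions in Nf1 KO.

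Genes with which macrophages take up, store and export lipid were lower in the bridge. Of 19 tested, 13 were lower and 1 (the protease gene Ctsk) was higher, and the median log2 fold change was -1.04. Apoe, the apolipoprotein that carries cholesterol out of cells, was among the most abundant of all genes (chromosome 7, 19696109 to 19699188, minus strand), at 8016, 7426 and 8052 CPM in the bridge and 19667, 19814 and 21458 CPM in the distal stump (log2 fold change -1.38 ± 0.15, adjusted p = 0.00061). Gpnmb, a lysosomal glycoprotein of lipid-laden macrophages, was at 63.4, 87.5 and 78.1 CPM in the bridge and 214, 288 and 303 CPM in the distal stump (log2 fold change -1.81 ± 0.25, adjusted p = 0.00145). The cholesterol exporter Abca1 was at 146, 138 and 137 CPM in the bridge and 332, 359 and 330.4 CPM in the distal stump (log2 fold change -1.28 ± 0.14, adjusted p = 0.000607). Abcg1, a second exporter, was at 27.4, 27.4 and 27.1 CPM in the bridge and 62.4, 88.2 and 73.9 CPM in the distal stump (log2 fold change -1.46 ± 0.19, adjusted p = 0.00116). In all 4 genes, each distal library exceeded each bridge library.

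Further members of the list were lower in the bridge as well. The lipid receptor Trem2 had a log2 fold change of -1.04 ± 0.17, osteopontin (Spp1) one of -1.08 ± 0.15, the lysosomal protease gene Ctsd one of -1.17 ± 0.18 and the sterol-sensing nuclear receptor gene Nr1h3 (LXR alpha) one of -0.83 ± 0.10. Lpl, a lipase of fatty acid uptake, measured 0.15 ± 0.09 and did not pass. The list of general macrophage and monocyte genes had 6 of 20 lower and none higher, among them Cd68, C1qa, C1qb, C1qc, the clearance receptor Mertk and lysozyme (Lyz2). Cd68 was at 88.7, 75.0 and 75.5 CPM in the bridge and 154, 146 and 161 CPM in the distal stump (log2 fold change -0.95 ± 0.19, adjusted p = 0.00913). Markers of the same cells thus were lower together with the lipid genes, as were 6 of 11 fat cell genes described further on, and the part of either cell type in those differences was not tested. The count of 6 became 2 without bridge 2 or distal 3.

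Apod and Apoc4 are apolipoprotein genes outside the list that the naming rule picked. Apod, which encodes a lipocalin secreted by glia and fibroblasts of injured nerve, was at 3676, 4536 and 4341 CPM in the bridge and 11676, 15162 and 14170.1 CPM in the distal stump (log2 fold change -1.71 ± 0.18, adjusted p = 0.0005). Apoc4, which neighbours Apoe, was at 4.14, 2.07 and 2.42 CPM in the bridge and 25.5, 23.1 and 27.6 CPM in the distal stump (log2 fold change -3.15 ± 0.39, adjusted p = 0.000841).

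Cholesterol synthesis genes went the other way and were higher in the bridge. Of 18 tested, 12 were higher and none lower, and the median log2 fold change was 0.58. Idi1, an isomerase of the isoprenoid branch, was at 42.4, 50.8 and 46.7 CPM in the bridge and 18.8, 24.1 and 23.0 CPM in the distal stump (log2 fold change 1.08 ± 0.16, adjusted p = 0.00193). Hmgcs1, which makes HMG-CoA, was at 169.5, 204 and 185 CPM in the bridge and 88.9, 111 and 99.9 CPM in the distal stump (log2 fold change 0.90 ± 0.15, adjusted p = 0.00323). Cyp51, a demethylase of the sterol ring, was at 38.9, 44.9 and 46.8 CPM in the bridge and 21.0, 24.9 and 23.8 CPM in the distal stump (log2 fold change 0.91 ± 0.14, adjusted p = 0.00274). In these 3 genes no distal library reached the lowest bridge library, and 8 of the 18 genes were called without both number 1 libraries. Pmvk, a kinase of the same pathway, did not pass, at -0.14 ± 0.12.

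Sterol synthesis genes are textbook targets of the factor SREBP2, which acts together with NF-Y at CCAAT boxes, and Abca1 is a target of the LXR receptors, which bind a pair of half-sites spaced by 4 bases (DR4). Promoters of 3 synthesis genes higher in the bridge and of Abca1, lower in the bridge, are shown because these genes moved in opposite directions. They are RefSeq sequences of build GRCm38.p6, 300 bases each, 5′ to 3′ on the gene's strand. Capitals mark TCACNCCAC (a sterol regulatory element) and CCAAT in the synthesis genes and DR4 in Abca1, written GGTNA, then 5 bases of any kind, then GGTNA. All were searched on both strands, and no marked matches overlap.
Hmgcs1, chr13:119690101-119690400, plus strand: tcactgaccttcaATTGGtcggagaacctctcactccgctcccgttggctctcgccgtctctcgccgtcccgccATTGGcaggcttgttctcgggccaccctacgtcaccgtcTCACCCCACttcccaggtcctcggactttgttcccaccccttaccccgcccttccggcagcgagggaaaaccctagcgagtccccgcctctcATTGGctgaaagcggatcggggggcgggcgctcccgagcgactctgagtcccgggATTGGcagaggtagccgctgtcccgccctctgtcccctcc
Idi1, chr13:8885356-8885655, plus strand: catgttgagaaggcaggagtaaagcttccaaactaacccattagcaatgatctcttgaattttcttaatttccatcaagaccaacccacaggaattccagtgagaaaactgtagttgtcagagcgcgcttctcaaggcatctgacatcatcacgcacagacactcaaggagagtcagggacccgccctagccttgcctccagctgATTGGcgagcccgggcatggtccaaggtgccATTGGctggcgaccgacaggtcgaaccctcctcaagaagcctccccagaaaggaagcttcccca
Cyp51, chr5:4104648-4104947, minus strand: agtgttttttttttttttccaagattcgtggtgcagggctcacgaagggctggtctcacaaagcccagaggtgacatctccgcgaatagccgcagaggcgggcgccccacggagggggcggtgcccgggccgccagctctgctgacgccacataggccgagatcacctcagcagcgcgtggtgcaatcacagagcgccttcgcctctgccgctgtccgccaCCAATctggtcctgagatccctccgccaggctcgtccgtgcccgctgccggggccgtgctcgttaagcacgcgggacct
Abca1, chr4:53159846-53160145, minus strand: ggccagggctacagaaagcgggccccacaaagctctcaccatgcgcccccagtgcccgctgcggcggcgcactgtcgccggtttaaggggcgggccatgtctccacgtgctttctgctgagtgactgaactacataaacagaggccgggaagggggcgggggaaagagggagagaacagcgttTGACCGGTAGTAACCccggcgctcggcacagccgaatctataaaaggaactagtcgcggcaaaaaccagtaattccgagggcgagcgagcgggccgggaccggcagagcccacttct

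In these windows Hmgcs1 held 1 sterol element and 4 CCAAT boxes, Idi1 held 2 CCAAT boxes, Cyp51 held 1 CCAAT box, and Abca1 held 1 DR4 match. Of 18 synthesis genes, 12 had a promoter in the table, with 15 windows in all, and CCAAT was found in 12 of these windows (80.0%), against 37.4% of all 32851 promoter windows. The sterol element TCACNCCAC was in 1 of the 15 windows (6.67%) and in 1.24% of all windows. The DR4 letters were in 0.718% of all windows and in 1 of 20 windows of the lipid-handling list. These matches describe the letters only.

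Fibrillar collagen and associated matrix genes were higher in the bridge. Of 23 tested, 15 were higher and 3 (Fmod, Thbs2 and Col11a1) were lower, and the median log2 fold change was 0.58. The 3 lower calls became 0 without both number 1 libraries and 1 without bridge 2, bridge 3 or distal 3. Col3a1, the collagen of young connective tissue (chromosome 1, 45311538 to 45349706, plus strand), was at 8834, 9288 and 9424 CPM in the bridge and 5284, 3863 and 4148 CPM in the distal stump (log2 fold change 1.05 ± 0.15, adjusted p = 0.00186). Col1a1, a chain of type I collagen, was at 2975, 2719 and 2276 CPM in the bridge and 1753, 1428 and 1524 CPM in the distal stump (log2 fold change 0.76 ± 0.10, adjusted p = 0.00145). Postn, the matricellular protein periostin, was at 3478, 4214 and 4182 CPM in the bridge and 1855, 1328 and 1390.2 CPM in the distal stump (log2 fold change 1.38 ± 0.16, adjusted p = 0.000749). Within the distal stump the highest Col3a1 and Postn values were those of distal 1, and they remained below all bridge values. Col6a3, Col14a1 and Col12a1 had log2 fold changes of 1.29 ± 0.17, 1.30 ± 0.12 and 1.03 ± 0.13. The collagen cross-linking enzyme gene Lox was at 1.13 ± 0.16. Fibronectin (Fn1) and tenascin C (Tnc) did not pass, at 0.18 ± 0.11 and 0.20 ± 0.37.

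Fibroblast markers shared this direction in 8 of 18 members, and 1 was lower. Mfap5, Fbln1, Clec3b and Dpt, which encode matrix-associated proteins of fibroblasts, had log2 fold changes of 1.16 ± 0.15, 1.25 ± 0.15, 1.15 ± 0.16 and 1.19 ± 0.29. The exception was the Wnt inhibitor gene Wif1, at 6.49, 10.8 and 9.13 CPM in the bridge and 40.9, 60.3 and 53.7 CPM in the distal stump (log2 fold change -2.55 ± 0.38, adjusted p = 0.00193). Inmt, which encodes an amine methyltransferase, was also lower in the bridge, at 4.10, 4.70 and 5.28 CPM in the bridge and 30.8, 23.8 and 25.7 CPM in the distal stump (log2 fold change -2.51 ± 0.15, adjusted p = 0.000171). Aldh1a2, which makes retinoic acid, was at 10.8, 9.43 and 12.0 CPM in the bridge and 43.0, 48.2 and 43.9 CPM in the distal stump (log2 fold change -2.07 ± 0.42, adjusted p = 0.0092). Inmt and Aldh1a2 are outside the fibroblast list, and Aldh1a2 lost its call without both number 1 libraries. Within the list, 14 of 18 log2 fold changes were positive. With libraries left out, the count of 8 became 5 without bridge 2, bridge 3, distal 2 or distal 3.

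Basement membrane genes were higher in 6 of 15 members and lower in 2. Col4a1 was at 589.8, 554 and 534 CPM in the bridge and 367, 334 and 380.5 CPM in the distal stump (log2 fold change 0.63 ± 0.09, adjusted p = 0.00151), while Lama5, a laminin chain, was lower in the bridge (-0.59 ± 0.12). The 6 higher calls became 3 without bridge 2 or both number 1 libraries. Of the proteases and their inhibitors, 7 of 20 were higher and 3 lower. Adamts12 and the membrane-bound collagenase gene Mmp14 were higher, at 1.02 ± 0.10 and 0.66 ± 0.08. The urokinase gene Plau, the inhibitor gene Timp2 and Mmp17 were lower, at -0.50 ± 0.10, -0.35 ± 0.09 and -1.02 ± 0.26. The count of 7 higher genes became 4 without distal 2. Of the 3 lower genes, Plau kept its call with each Nf1 KO library left out, but not with the replicate block in the 6 Nf1 KO libraries. Timp2 lost its call without bridge 1, bridge 2, bridge 3 or distal 1, and Mmp17 without bridge 1, bridge 3, distal 2 or distal 3. Without both number 1 libraries, 1 of the 3 was called.

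Perineurial genes, which mark the barrier sheath around fascicles, split. Of 15, 7 were lower and 2 higher in the bridge. Cldn1, the main claudin of the perineurium (chromosome 16, 26356642 to 26371841, minus strand), was at 371, 300.1 and 312 CPM in the bridge and 152, 129 and 145 CPM in the distal stump (log2 fold change 1.20 ± 0.09, adjusted p = 0.000356). Gli1, a Hedgehog target, was the other higher member. Ntng1, Msln, Sfrp5 and the glucose transporter gene Slc2a1 were lower, with log2 fold changes of -1.25 ± 0.09, -1.06 ± 0.12, -1.03 ± 0.15 and -0.64 ± 0.12. Ntng1 was at 14.3, 15.1 and 14.0 CPM in the bridge and 31.8, 37.3 and 34.2 CPM in the distal stump, which left a wide gap between regions.

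Endothelial genes were higher in the bridge in 13 of 16 members, and 1 (the transporter gene Slco1a4) was lower at an adjusted p of 0.0474. The call of Slco1a4 was lost with any Nf1 KO library left out (adjusted p from 0.0722 to 0.149). The median log2 fold change was 0.59. Plvap, the diaphragm protein of leaky capillaries, was at 52.4, 52.1 and 48.4 CPM in the bridge and 26.4, 20.6 and 19.3 CPM in the distal stump (log2 fold change 1.21 ± 0.14, adjusted p = 0.000692). Kdr, the main VEGF receptor, was at 16.3, 17.3 and 19.4 CPM in the bridge and 10.1, 7.58 and 7.31 CPM in the distal stump (log2 fold change 1.09 ± 0.12, adjusted p = 0.00066). Erg, an endothelial transcription factor, was at 11.6, 11.3 and 12.6 CPM in the bridge and 6.86, 4.53 and 5.98 CPM in the distal stump (log2 fold change 1.03 ± 0.13, adjusted p = 0.00105), and Eng, a TGF-beta co-receptor, was at 28.7, 24.4 and 24.0 CPM in the bridge and 16.1, 13.7 and 14.1 CPM in the distal stump (log2 fold change 0.81 ± 0.09, adjusted p = 0.000593). Cldn5, the claudin of barrier endothelium, did not pass, at 26.6, 30.4 and 36.4 CPM in the bridge and 31.1, 33.5 and 36.0 CPM in the distal stump (-0.11 ± 0.14, adjusted p = 0.672).

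Mural cell genes followed the vessels in part, with 4 of 12 higher and 1 lower. Rgs5, a pericyte marker, was at 159, 167 and 189 CPM in the bridge and 88.2, 75.4 and 73.6 CPM in the distal stump (log2 fold change 1.12 ± 0.10, adjusted p = 0.000374). The pericyte potassium channel genes Kcnj8 and Abcc9 had log2 fold changes of 1.47 ± 0.21 and 1.13 ± 0.20. Of the angiogenic and hypoxia list, 3 of 15 were higher (Angpt1, Angpt2 and Vegfc) and 1 lower (Slc2a1). Vegfa, the ligand of Kdr, did not pass (log2 fold change 0.69 ± 0.22, adjusted p = 0.0579), and it was called without distal 1 (0.84 on the log2 scale, adjusted p = 0.0448) but with no other single library left out (0.114 to 0.182).

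**Figure D4:**
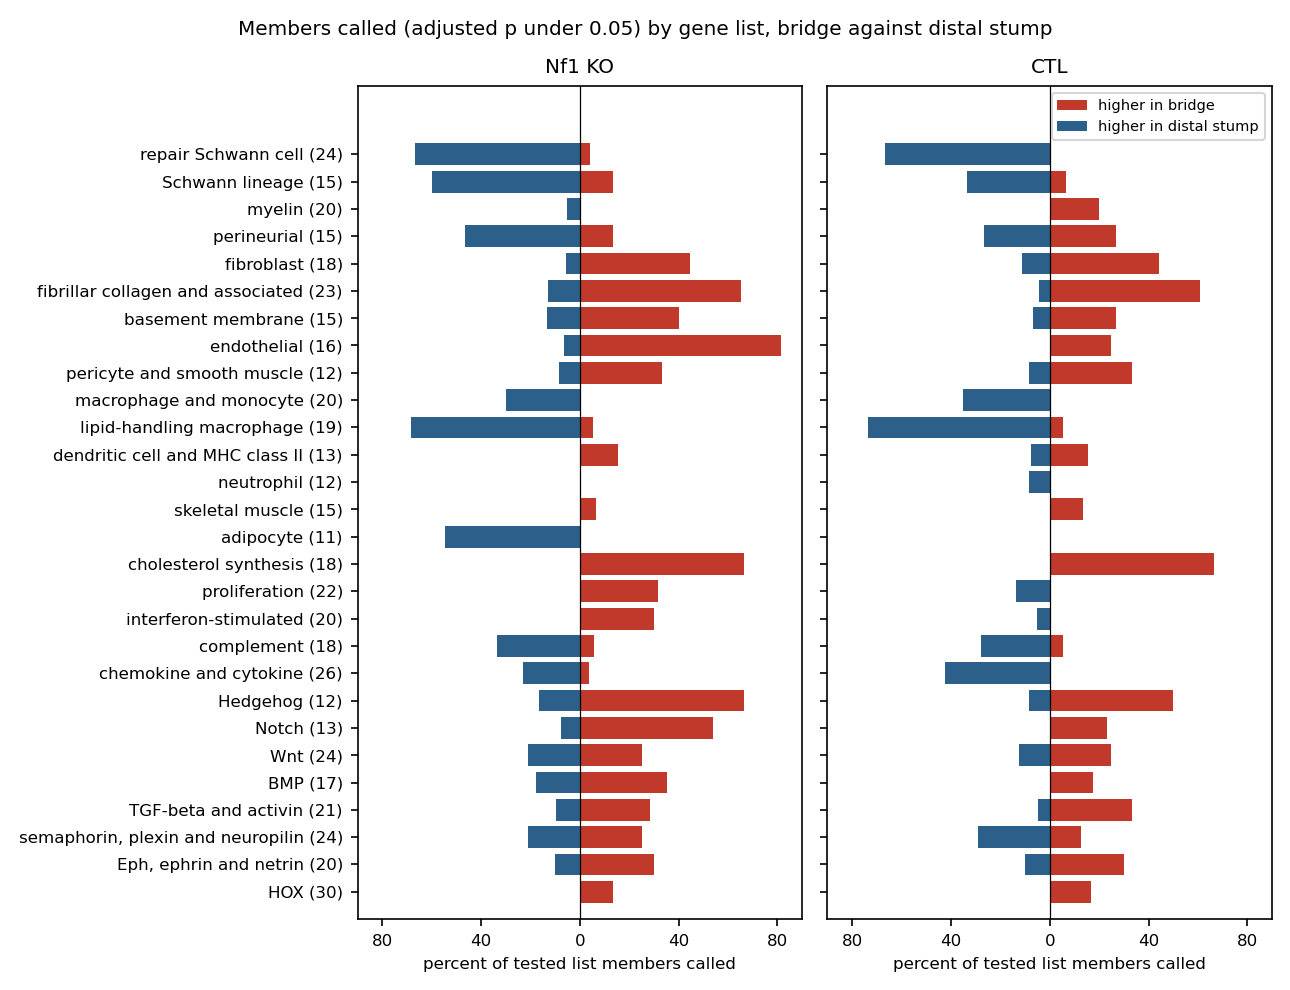
Percent of the tested members of 28 gene lists that were called higher in the bridge (red, right) or higher in the distal stump (blue, left), in Nf1 KO (left panel) and CTL (right panel), with the number tested in brackets. In Nf1 KO, 13 of 16 endothelial and 15 of 23 collagen genes lie on the bridge side and 16 of 24 repair Schwann and 13 of 19 lipid-handling genes on the distal side.

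Hedgehog ligands and targets lay in opposite regions. Ligand genes were lower in the bridge, Shh at 7.84, 8.70 and 11.0 CPM in the bridge and 13.5, 17.2 and 20.8 CPM in the distal stump (log2 fold change -0.90 ± 0.22, adjusted p = 0.0224) and the Schwann cell ligand gene Dhh at 92.6, 102 and 100.2 CPM in the bridge and 122, 170.0 and 178 CPM in the distal stump (log2 fold change -0.68 ± 0.12, adjusted p = 0.00578). Hhip, which encodes a Hedgehog-binding inhibitor and is a target of the pathway (chromosome 8, 79965851 to 80058006, minus strand), was at 11.8, 10.6 and 11.5 CPM in the bridge and 1.98, 1.04 and 0.432 CPM in the distal stump. The lowest bridge value exceeded the highest distal value several-fold (log2 fold change 3.29 ± 0.43, adjusted p = 0.00109). Gli1, the target factor, was at 30.7, 31.3 and 26.2 CPM in the bridge and 18.4, 16.2 and 18.2 CPM in the distal stump (log2 fold change 0.74 ± 0.09, adjusted p = 0.000831). In all, 8 of 12 members were higher and 2 lower, with Ptch1, Gli2, Gli3 and the co-receptor genes Gas1 and Cdon among the higher. The 2 lower calls became 1 without bridge 1, bridge 2, distal 2, distal 3 or both number 1 libraries, each time by the loss of Shh (adjusted p from 0.0515 to 0.0904).

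Notch genes were higher in 7 of 13 members and lower in 1. Heyl, a target factor of mural cells, was at 20.8, 16.4 and 15.9 CPM in the bridge and 5.45, 2.36 and 2.59 CPM in the distal stump (log2 fold change 2.35 ± 0.37, adjusted p = 0.00248). The ligand gene Jag1 was at 49.0, 51.8 and 45.8 CPM in the bridge and 27.7, 22.6 and 23.1 CPM in the distal stump (log2 fold change 1.00 ± 0.08, adjusted p = 0.000356). The receptor gene Notch1 was lower, at -0.66 ± 0.12. The 7 higher calls became 4 without bridge 1, bridge 3, distal 1, distal 2 or both number 1 libraries.

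Wnt members split, 6 of 24 higher and 5 lower. The ligand gene Wnt5a was at 16.6, 15.2 and 17.5 CPM in the bridge and 7.23, 7.67 and 5.04 CPM in the distal stump (log2 fold change 1.30 ± 0.17, adjusted p = 0.00124), and the secreted inhibitors Sfrp1, Sfrp4 and Dkk2 were higher by 0.85, 0.84 and 0.97 on the log2 scale. Wif1, Sfrp5, Wnt16, Rspo1 and the target gene Axin2 were lower. The call of Axin2 was near the threshold (adjusted p = 0.0394) and was lost without bridge 1, bridge 2, bridge 3, distal 2 or distal 3. In the BMP list, 6 of 17 were higher, among them the receptor gene Bmpr1b at 1.59 ± 0.18, and 3 ligand or inhibitor genes (Bmp6, Bmp7 and Nog) were lower. The count of 3 became 1 without bridge 1, bridge 2, bridge 3, distal 2 or distal 3. In the TGF-beta and activin list, 6 of 21 were higher, among them Tgfbr2, Tgfb3 and the activin inhibitor gene Fst at 0.62 ± 0.07, 0.76 ± 0.10 and 1.02 ± 0.13. Inhbb, an activin subunit, and the target gene Tgfbi were lower, and the comparison of Tgfbi with CTL is given below.

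Guidance genes also divided between regions. Among Eph receptors, ephrins and netrins, 6 of 20 were higher and 2 lower. Epha3 was at 13.5, 10.9 and 11.8 CPM in the bridge and 3.16, 1.10 and 1.01 CPM in the distal stump (log2 fold change 2.78 ± 0.42, adjusted p = 0.00207) and Epha5 at 19.3, 23.1 and 21.0 CPM in the bridge and 59.6, 58.6 and 60.4 CPM in the distal stump (log2 fold change -1.49 ± 0.18, adjusted p = 0.000818), so this pair of receptors had opposite directions. Distal 1 held the highest distal value of Epha3. Of 24 semaphorin, plexin and neuropilin genes, 6 were higher and 5 lower, with the co-receptor gene Nrp1 at 178, 162 and 167 CPM in the bridge and 107, 93.7 and 93.5 CPM in the distal stump (log2 fold change 0.79 ± 0.07, adjusted p = 0.000374) and the ligand gene Sema3e at 5.75, 6.38 and 5.91 CPM in the bridge and 13.1, 14.8 and 13.5 CPM in the distal stump (log2 fold change -1.20 ± 0.16, adjusted p = 0.00138). Slit3, a repellent ligand, was at 44.6, 37.3 and 35.3 CPM in the bridge and 21.3, 12.1 and 12.7 CPM in the distal stump (log2 fold change 1.35 ± 0.19, adjusted p = 0.00149), and with Robo2 and Robo4 made 3 of 9 Slit and Robo genes higher, against 1 lower (Slit1). The 5 lower semaphorin-group calls became 2 without bridge 3, distal 2 or distal 3 and 3 without bridge 1, bridge 2 or both number 1 libraries.

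Among growth factors, 5 of 24 were higher and 5 lower. Igf1 was at 318, 304 and 329 CPM in the bridge and 176, 162 and 154 CPM in the distal stump (log2 fold change 0.95 ± 0.08, adjusted p = 0.000356). The hepatocyte growth factor gene Hgf was higher by 0.54 and its receptor gene Met lower, with a log2 fold change of -1.10 ± 0.20. In the neurotrophic list, 4 of 17 were higher (Gfra2, Gfra3, Ntf3 and Ntrk3) and 5 lower (Ngfr, Gfra1, Artn, Gdnf and Ntrk2). Among genes of RAS and ERK feedback, 2 of 20 were higher (Spry1 and Rasa1) and 3 lower (Spry2, Etv5 and Fosl1), so that 25.0% of the list was called. The Spry1 and Spry2 genes, both inhibitors of receptor signalling to RAS, thus differed in direction, at 0.43 ± 0.07 and -0.31 ± 0.08. The count of 3 lower genes became 0 without bridge 2, bridge 3 or distal 3 and 1 without distal 2 or both number 1 libraries. The neurotrophic counts became 3 without bridge 2, bridge 3, distal 2 or distal 3 for the lower and 2 without bridge 3, distal 2, distal 3 or both number 1 libraries for the higher genes.

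Chemokine and cytokine genes were lower in 6 of 26 members and higher in 1. Ccl2, which recruits monocytes, was at 55.5, 63.7 and 72.2 CPM in the bridge and 149, 218 and 203 CPM in the distal stump (log2 fold change -1.57 ± 0.19, adjusted p = 0.000872), and Cxcl12 was at 82.0, 66.9 and 73.5 CPM in the bridge and 50.5, 36.7 and 37.1 CPM in the distal stump (log2 fold change 0.84 ± 0.14, adjusted p = 0.00363). Complement genes were lower in 6 of 18 members, 3 of them the C1q chains, and higher in 1 (Cfi). The 6 chemokine calls became 2 without bridge 2 and 3 without bridge 3, distal 2 or distal 3. The 6 lower complement calls became 1 without bridge 2 or distal 3 and 3 without bridge 3. Interferon-stimulated genes were higher in 6 of 20 members and lower in none, with Isg15 at 30.7, 24.3 and 32.0 CPM in the bridge and 19.7, 17.1 and 21.3 CPM in the distal stump (log2 fold change 0.58 ± 0.12, adjusted p = 0.00991). The 6 interferon calls became 1 without bridge 1, bridge 3, distal 3 or both number 1 libraries and 2 without distal 2. Of dendritic cell and MHC class II genes, 2 of 13 were called, Clec9a and Zbtb46, both higher. This is 15.4% of the list, near the 15.2% called over all genes. Zbtb46 lost its call without bridge 1 (adjusted p = 0.0733), distal 2 (0.0776) or both number 1 libraries (0.133).

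Genes of fat cells were lower in the bridge in 6 of 11 members. Retn, which encodes resistin, was at 8.24, 11.5 and 17.0 CPM in the bridge and 33.1, 45.7 and 34.8 CPM in the distal stump (log2 fold change -1.63 ± 0.28, adjusted p = 0.00423) and Cfd, which encodes adipsin, at 105, 207 and 311 CPM in the bridge and 521, 761 and 564 CPM in the distal stump (log2 fold change -1.57 ± 0.34, adjusted p = 0.0123). The list summed to 359.6, 502 and 727 CPM in the bridge and 978, 1284 and 985 CPM in the distal stump, with the defining marker Adipoq at 19.3, 31.7 and 49.0 CPM in the bridge and 61.7, 75.0 and 56.3 CPM in the distal stump. Adipoq itself did not pass the edgeR test (log2 fold change -0.95, adjusted p = 0.071), although 4 of the alternatives called it. The 6 calls became 3 without bridge 1, bridge 2, distal 2, distal 3 or both number 1 libraries. The edgeR test called none of 12 neutrophil, 10 mast cell and 7 lymphatic genes, of which 3, 3 and 1 had an unadjusted p under 0.05, and DESeq2 called 1 mast cell gene and none of the others. Of 15 muscle genes 1 was called, the slow-fibre myosin gene Myh7 at 33.2, 38.3 and 5.43 CPM in the bridge and 1.78, 1.40 and 1.55 CPM in the distal stump (adjusted p = 0.0324, and 0.0731 without distal 1, with adjusted p from 0.0279 to 0.134 over the Nf1 KO libraries left out). Myl2, a myosin light chain gene of slow muscle outside the list, was at 25.1, 29.5 and 2.98 CPM in the bridge and 0.707, 1.07 and 1.04 CPM in the distal stump (log2 fold change 4.34 ± 0.96, adjusted p = 0.0136). Both genes were high in bridge 1 and bridge 2, and lower in bridge 3. The call of Myl2 was lost without distal 2 (adjusted p = 0.0506), distal 3 (0.0557) or both number 1 libraries (0.0872), and with limma-voom (0.215). It was also lost with the replicate block in the 6 Nf1 KO libraries.

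Proliferation genes were higher in the bridge in 7 of 22 members and lower in none, with small changes. Ccnb2, a mitotic cyclin, was at 34.9, 28.2 and 31.2 CPM in the bridge and 20.3, 21.2 and 20.9 CPM in the distal stump (log2 fold change 0.60 ± 0.11, adjusted p = 0.0048). Bub1, a spindle checkpoint kinase, was at 17.3, 13.1 and 15.8 CPM in the bridge and 8.85, 10.6 and 9.14 CPM in the distal stump (log2 fold change 0.69 ± 0.16, adjusted p = 0.016). Mki67, a marker of dividing cells, did not pass, at 38.9, 37.3 and 36.7 CPM in the bridge and 33.1, 27.6 and 26.2 CPM in the distal stump (0.38 ± 0.14, adjusted p = 0.0932). The 7 calls became 2 without both number 1 libraries, 3 without bridge 1 and 4 without bridge 3 or distal 3.

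Several of the largest values toward the bridge belonged to genes outside the lists, Myl2 among them. Dlk1, an imprinted gene of embryonic and stromal progenitors whose counts are also listed under a second gene ID, was at 21.1, 28.5 and 12.8 CPM in the bridge and 1.65, 0.577 and 0.252 CPM in the distal stump (log2 fold change 4.65 ± 0.86, adjusted p = 0.00585). Mest, also imprinted, was at 601, 571 and 555 CPM in the bridge and 100.0, 30.7 and 35.1 CPM in the distal stump (log2 fold change 3.38 ± 0.46, adjusted p = 0.00138), and its neighbour Klf14 was at 6.56, 5.96 and 5.52 CPM in the bridge and 1.04, 0.247 and 0.432 CPM in the distal stump (log2 fold change 3.39 ± 0.49, adjusted p = 0.00183). Distal 1 had the highest distal value of all 3. The angiotensin receptor gene Agtr2 was at 33.9, 27.8 and 23.1 CPM in the bridge and 5.42, 2.72 and 2.38 CPM in the distal stump (log2 fold change 3.01 ± 0.52, adjusted p = 0.00416). Adamtsl2, a microfibril-associated protein, was at 37.3, 26.4 and 24.5 CPM in the bridge and 5.55, 2.64 and 3.82 CPM in the distal stump (log2 fold change 2.88 ± 0.31, adjusted p = 0.000593). Of HOX genes, 4 of 30 were higher and none lower, so that 13.3% were called, against 15.2% of all genes. The count of 4 became 2 without bridge 1, distal 2, distal 3 or both number 1 libraries. Hoxa7 was at 0.59 ± 0.10 and lost its call with the replicate block in the 6 Nf1 KO libraries. Among the genes with the largest values toward the distal stump were Kng1 and Fetub, secreted plasma proteins of the liver, at -3.29 ± 0.68 and -2.91 ± 0.39, and Prl2c2, whose reads may be split with near-identical family members, at -3.63 ± 0.64. They also included the interleukin gene Il1a, at -2.37 ± 0.41, the vesicular glutamate transporter gene Slc17a8, at -2.08 ± 0.25, and the potassium channel gene Kcna4, at -2.43 ± 0.36.

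The same contrast in CTL nerves called 1891 genes (9.85%), 988 (5.15%) higher and 903 (4.71%) lower in the bridge. Of the 2914 genes called in Nf1 KO, 2532 had the same sign in CTL, 536 were called higher and 495 lower in both genotypes, while 5 were higher in the Nf1 KO bridge and lower in the CTL bridge and 5 the reverse. The median absolute log2 fold change of those 2914 genes was 0.477 in Nf1 KO and 0.281 in CTL, a comparison that favours Nf1 KO because the genes were chosen there. The interaction of genotype and region called no gene with edgeR (smallest adjusted p = 0.0873), with 2534 genes at an unadjusted p under 0.05. Limma-voom called none either, and DESeq2 called 447, of which 204 were more positive and 243 more negative in Nf1 KO. The smallest DESeq2 adjusted p was that of Tgfbi (5.6e-11), with an interaction of -0.84 on the log2 scale. The edgeR adjusted p of the Tgfbi interaction was 0.0873. A call in Nf1 KO alone is therefore not shown to differ from CTL by the edgeR test.

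Regional changes in CTL stood near those in Nf1 KO for several lists. Repair Schwann genes had a median of -1.13 in CTL and -0.87 in Nf1 KO, and cholesterol synthesis genes 0.53 and 0.58. Hhip had a log2 fold change of 3.17 in CTL and Cldn1 one of 1.29, against 3.29 and 1.20 in Nf1 KO. Endothelial genes had a median of 0.23 in CTL with 4 of 16 called, against 0.59 with 14 of 16 called in Nf1 KO. The interaction was positive in 14 of 16 endothelial genes, with none called by edgeR and 2 by DESeq2. Other lists were also one-sided, with positive interactions in 19 of 20 interferon-stimulated, 1 of 20 myelin, 0 of 11 fat cell and 3 of 19 lipid-handling genes. The lipid-handling list had a median of -0.72 in CTL and -1.04 in Nf1 KO. The share of positive interactions over all genes is not given here. Proliferation genes had a median of -0.28 in CTL, where 3 were lower and none higher in the bridge. Their interaction was positive in all 22 members, 19 of them at an unadjusted p under 0.05, with none called by edgeR and 10 by DESeq2. Rrm2, a subunit of ribonucleotide reductase, had the smallest of these adjusted p-values. It was at 28.1, 25.2 and 28.4 CPM in the bridge and 21.2, 20.8 and 20.6 CPM in the distal stump in Nf1 KO and at 13.3, 14.1 and 15.9 CPM in the bridge and 19.8, 18.4 and 18.2 CPM in the distal stump in CTL, so the direction was opposite (interaction 0.76 on the log2 scale, adjusted p = 0.0873). Slit2 was at 49.7, 46.5 and 48.8 CPM in the bridge and 41.2, 46.5 and 45.2 CPM in the distal stump in Nf1 KO and 56.5, 61.9 and 58.6 CPM in the bridge and 83.3, 80.5 and 83.9 CPM in the distal stump in CTL (interaction 0.61, adjusted p = 0.0873), and its regional change in Nf1 KO did not pass the test.

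**Figure D5:**
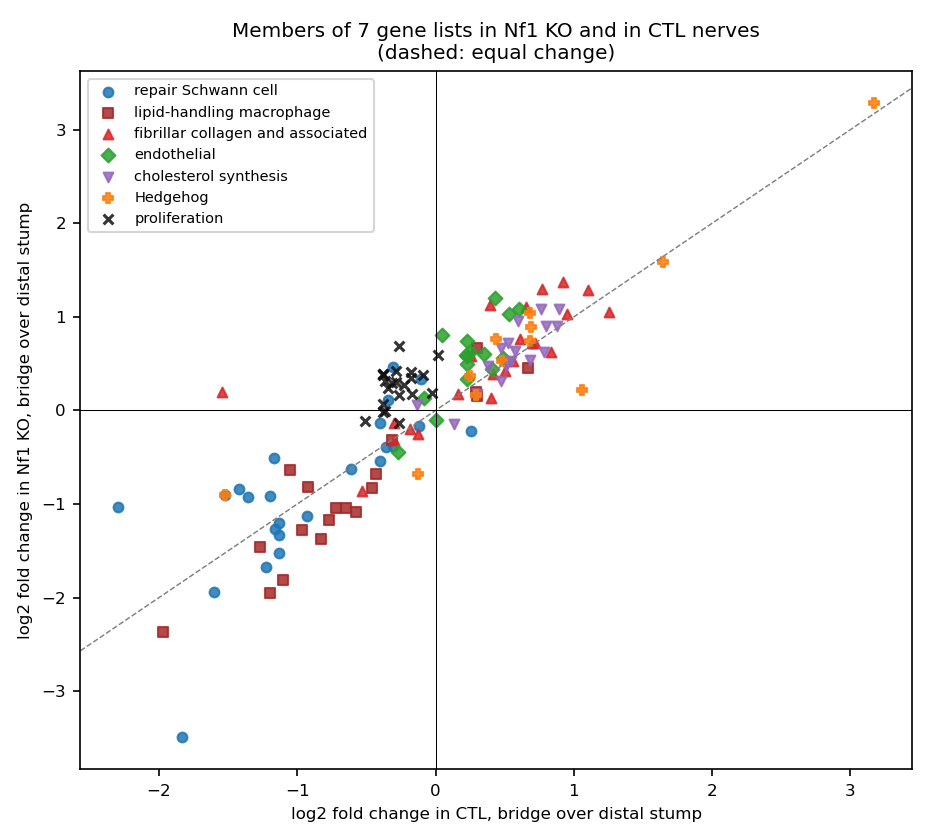
Log2 fold change of bridge over distal stump in Nf1 KO (vertical) against the same in CTL (horizontal) for the members of 7 gene lists, 1 point per gene, with the dashed line at equal change. The proliferation genes lie above the line, with a median of 0.30 in Nf1 KO and -0.28 in CTL. Endothelial genes lie mostly above it (interaction positive in 14 of 16) and lipid-handling genes mostly below it (positive in 3 of 19). The other lists drawn lie on both sides of it.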

How the data were processed

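Bulk RNA-seq of mouse sciatic nerve was analysed from a table of estimated counts per gene that the authors deposited, in which all values are whole, so that rounding changed none. Per the labels' protocols, total RNA from Trizol and column purification was DNase-treated, depleted of ribosomal RNA with Ribo-Zero Gold and made into strand-specific libraries (NEB Ultra Directional) with 15 amplification cycles. Of the processing before deposit, cutadapt 1.2.1, CASAVA 1.8.2, DESeq2 and build mm10 are named in the submitters' processing notes. The aligner and the counter are, in the sources used here, not given. Gene positions are from GENCODE on GRCm38, the same build as mm10, which held 30202 of the 30452 gene IDs. Very short genes have no low values above 0 in this table, which can distort their levels.

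The 12 libraries were fitted together, so that all groups share 1 estimate of the spread, with edgeR 4.0.16 (R 4.3.3; TMM, filterByExpr by group, quasi-likelihood test, Benjamini-Hochberg adjustment, threshold 0.05). The regional contrast was taken within either genotype, and the interaction is the difference of the 2 contrasts. Standard errors were derived from the fold change and the F statistic of the test. A single value was tested by a two-sided exact permutation test. DESeq2 1.42.0 and limma-voom (limma 3.58.1), other scalings, no filter, a replicate block, a test against a log2 change of 0.5 and leaving out libraries were the alternatives. The script was tested on simulated counts. Genes named were called genes with symbols other than placeholders, a log2 of the mean CPM of at least 1 and no overlap between regions, by largest change or highest level, up to 4 called members with the smallest p and the most abundant member of each list, and the 5 smallest interaction p-values in each direction. Further members of lists were named by role after their values were seen. T cell receptor segments that this rule picks are not described. The gene lists and comparisons were chosen with earlier results of these data known. The libraries held 26124609 to 38981819 counts in Nf1 KO, and depth limits precision for low genes. A few genes picked in this way are left out of the text.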

Additional observations from a re-analysis of the deposited data

How the results depend on the processing

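In Nf1 KO, the numbers of genes higher in the bridge (1492) and in the distal stump (1422) stayed within 1.5 times under other scalings, DESeq2, limma-voom, no filter, the 6 Nf1 KO libraries alone and a block in all 12 libraries. A test for changes beyond 0.5 on the log2 scale left 165 and 120. With a replicate block in the 6 Nf1 KO libraries they moved to 655 and 705. The shared numbers were not taken as pairs in the main fit. Same-numbered libraries correlated at 0.214, 0.0824 and 0.115 in their deviations from group means, and each bridge library correlated best with its own number. The immunoglobulin gene Igkc ran with the number, at 146, 52.5 and 13.3 CPM in the bridge and 104, 28.1 and 5.94 CPM in the distal stump. The Y-linked gene Ddx3y was lowest in bridge 2 and distal 2. Whether same-numbered pools hold tissue of the same mice was not tested, and the main fit would ignore such a pairing. Leaving out 1 Nf1 KO library gave 875 (without distal 3) to 1456 (without distal 1) and 719 to 1436. Without both number 1 libraries, an alternative chosen after seeing the data, 980 and 882 were called. Genes up to 300 bases were also left out after seeing the data, with 1529 and 1465 called. In CTL the counts moved to 45 and 16 against a log2 change of 0.5, and leaving out 1 CTL library gave 389 to 953 and 268 to 957. The interaction had 447 genes with DESeq2 and 0 in every other alternative run. Of 157 genes named in the text and called, 107 stayed called in every alternative other than the test against 0.5. Upper-quartile factors, the scaling that moved the median of all genes most, put it at 0.0172. The causes of these moves were not tested.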
